A study of Gallus gallus with 6 samples.

Results

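The Krüppel-like factors (KLFs) are transcription factors that bind GC-rich and CACCC-type DNA elements through a block of zinc fingers at their carboxyl end. This account follows 10 of them, KLF2, KLF3, KLF4, KLF5, KLF6, KLF7, KLF9, KLF10, KLF11 and KLF15, in chicken preadipocytes. The members were chosen by name, and each symbol matched exactly 1 of the 18495 genes in the deposited table. RNA came from ICP1, an immortalized chicken preadipocyte line grown with fetal bovine serum, in a study that asked about KLF2 and GATA2 in adipogenesis. KLF2 libraries came from 3 wells given pCMV-myc-KLF2, a plasmid in which the CMV promoter drives myc-tagged KLF2. EV libraries came from 3 wells given pCMV-myc, the empty vector. ExFect reagent was used for all wells, and all were harvested 48 h later. Every library comes from 1 line and 1 time point, so p-values describe variation among wells of that line.

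Members of this family act at different steps of fat cell formation, mostly known from mouse preadipocytes. KLF2, KLF3 and KLF7 restrain differentiation, and KLF2 does so in part by repressing PPARG, the nuclear receptor that drives it. KLF4, KLF5, KLF6, KLF9 and KLF15 favour it, at steps that range from early induction of CEBPB to late activation of metabolic genes. KLF10 and KLF11 were found as early genes of the TGF-beta response and recruit the SIN3A corepressor.

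Depth was even, at 13255169 to 14168807 assigned reads per library. Libraries did not separate by plasmid on the first principal component (67.1% of variance, 10893 genes averaging 20 or more). On it KLF2 1 scored -42.5, while KLF2 3 and EV 1 scored 27.1 and 38.5. Later components were not examined. Ribosomal RNA took 0.131% of the reads of KLF2 3 and 0.350% of those of EV 1, and at most 0.0215% of any other library. Beside each member stand the lowest and highest log2 fold changes with single libraries left out. As preadipocyte and fibroblast markers, COL1A1, COL1A2 and DCN averaged 26792, 16951 and 15119 normalized counts in KLF2 libraries, against 34052, 19196 and 14301 in EV libraries. The summed level of all 10 such markers was 65489 to 76748 in KLF2 libraries and 75614 to 88650 in EV libraries. Most of it came from COL1A1, COL1A2 and DCN. Low markers, singled out after their values were seen, were ZNF423, LUM and DLK1. They averaged 114, 44.3 and 3.66 in KLF2 libraries, against 134, 46.0 and 2.59 in EV libraries. Mature adipocyte markers (5 of 5) summed to 22.8 to 41.1 in KLF2 libraries and 49.7 to 55.0 in EV libraries, which are low counts. FABP4, the highest of them, averaged 23.9 and 31.2, and its groups overlapped. ADIPOQ, singled out after its values were seen, averaged only 1.00 and 4.97. Its groups did not overlap, as for 3.26% of all tested genes in this direction. Endothelial markers (6 of 6) summed to 184 to 233 in KLF2 libraries and 206 to 250 in EV libraries. Most of this was CDH5, which averaged 122 in KLF2 libraries and 137 in EV libraries. Leukocyte markers (4 of 5) summed to 989 to 1264 and 915 to 1281, most of it SPI1. Muscle markers (2 of 5) summed to 3.05 to 26.8 and 20.7 to 24.5, and epithelial markers (4 of 5) to 2.03 to 13.4 and 11.2 to 14.3. Of the latter, EPCAM was listed at 0 in every KLF2 library and in EV 1, against 2.04 in EV 2 and 1.91 in EV 3. In the limma fit across all genes none of these markers passed at an adjusted p under 0.05. COL1A1 (log2 fold change -0.33, 1 of 10 preadipocyte and fibroblast markers) had an unadjusted p under 0.05. So did ADIPOQ (-1.53, 1 of 5 mature adipocyte markers), against 2.11% of all genes. The adjusted p was 0.962 for each in limma. The part of these markers in the results was not tested.

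Levels of different genes were compared per length, as normalized counts per kilobase of the deposited gene length. For KLF2 this is the 2353 bases of the chromosomal gene, applied also to any reads from the plasmid. The labels do not give the species of the KLF2 insert, so levels, ranks, shares and ratios of KLF2 rest on that length. In KLF2 libraries KLF10 stood highest at 809 ± 154 (SD, n = 3), followed by KLF2 at 720 ± 290, KLF6 at 667 ± 61.0 and KLF9 at 391 ± 105. In EV libraries KLF10 stood at 839 ± 145 (SD, n = 3), KLF6 at 702 ± 6.69, KLF9 at 475 ± 114 and KLF2 at 349 ± 100. Below these came KLF5, KLF11, KLF4, KLF7 and KLF3, in this order in both groups, between 188 and 90.7 in KLF2 libraries and between 162 and 79.9 in EV libraries. KLF15 was last, at 1.89 ± 0.894 in KLF2 libraries and 1.55 ± 0.568 in EV libraries. By the mean of all 6 libraries KLF10 lay above 94.2% of genes, KLF6 above 92.8% and KLF2 above 90.3%, whereas KLF15 lay above 28.8%.

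Per kilobase, KLF2 thus had rank 2 of 10 in KLF2 libraries and rank 4 in EV libraries. The other 9 members had the same order of means in both groups. Not divided by length, KLF2 had rank 3 in KLF2 libraries and rank 3 in EV libraries, so the shift depends on the length used. By library its rank per kilobase was 3, 2 and 1 in KLF2 1, 2 and 3, and 4 in every EV library. In KLF2 libraries its range overlapped those of KLF10 and KLF6, so the order of these 3 genes did not stand beyond the spread between wells, and without KLF2 3 its rank was 3. The neighbours in the order that did not overlap in KLF2 libraries were KLF6 and KLF9, KLF9 and KLF5, and KLF3 and KLF15. Those that did not overlap in EV libraries were KLF10 and KLF6, KLF6 and KLF9, KLF2 and KLF5, and KLF3 and KLF15.

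**Figure D1:**
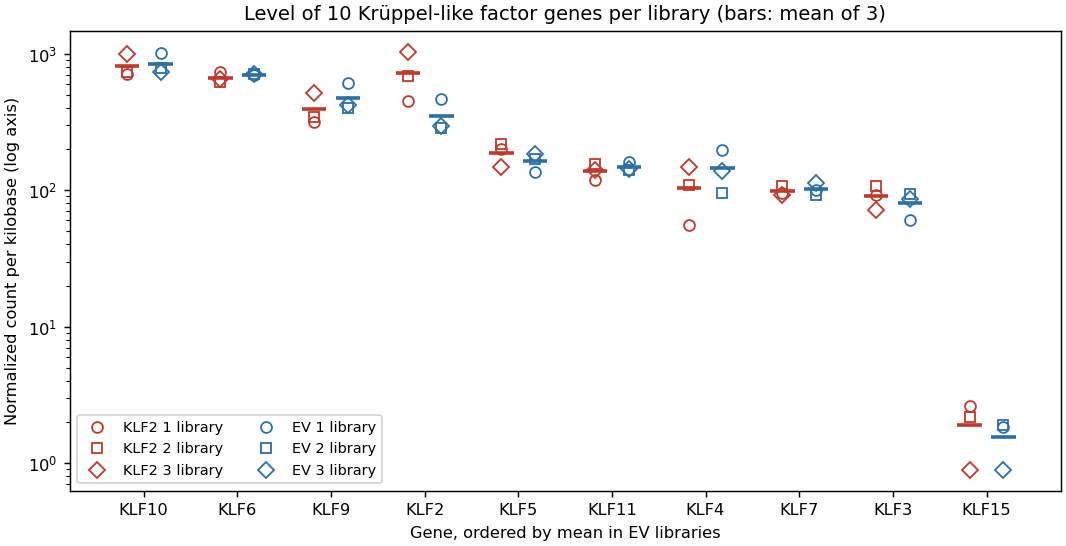
Level of each gene in each library, as normalized counts per kilobase on a log axis, with KLF2 libraries in red to the left and EV libraries in blue to the right of each gene, and bars at the mean of 3. KLF10 and KLF6 sit near the top in both groups, KLF2 averages 720 in KLF2 libraries and 349 in EV libraries, and KLF15 lies below 3 in every library.

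As a share of the summed level per kilobase of all 10 members, KLF2 made up 16.2%, 22.3% and 27.2% in KLF2 1, 2 and 3, against 13.6%, 10.4% and 10.5% in EV 1, 2 and 3. The shares did not overlap between groups, although the KLF2 level itself did. KLF2 divided by a single other gene also gave no overlap for 45.7% of 10892 genes averaging 20 or more. The summed level of the other 9 members was 2488 ± 229 in KLF2 libraries and 2654 ± 269 in EV libraries (SD, n = 3), with overlapping ranges. KLF10 made up 25.2% ± 1.15 of the pool in KLF2 libraries and 27.9% ± 1.65 in EV libraries (SD, n = 3), also with overlap. These shares describe the members and were not tested.

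The difference between plasmids was fitted over 16765 genes with limma and Benjamini-Hochberg adjustment at a threshold of 0.05, which 0 genes passed (0.0%). All 10 members entered the fit, and 0 of them passed. At an unadjusted p under 0.05 there was 1 of 10 members, KLF2, which was higher, against 2.11% of all genes (0.913% higher and 1.2% lower). On the recovered reads edgeR called 0 of 11860 genes and DESeq2 0 of 18492, and at an unadjusted p under 0.05 KLF2 was again the only member, against 1.3% of genes in edgeR and 0.936% in DESeq2. The groups overlapped for all 10 members, whereas 6.65% of tested genes had groups that did not overlap (3.39% higher and 3.26% lower). Of the members 6 had a lower mean log2 value in KLF2 libraries, against 50.9% of genes, and their median log2 fold change was -0.05, against -0.01 over all genes. The exact two-sided permutation p over the 6 libraries was 0.2 for KLF2 and 0.4 to 0.6 for the other members, where 3 against 3 cannot go below 0.1.

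**Figure D2:**
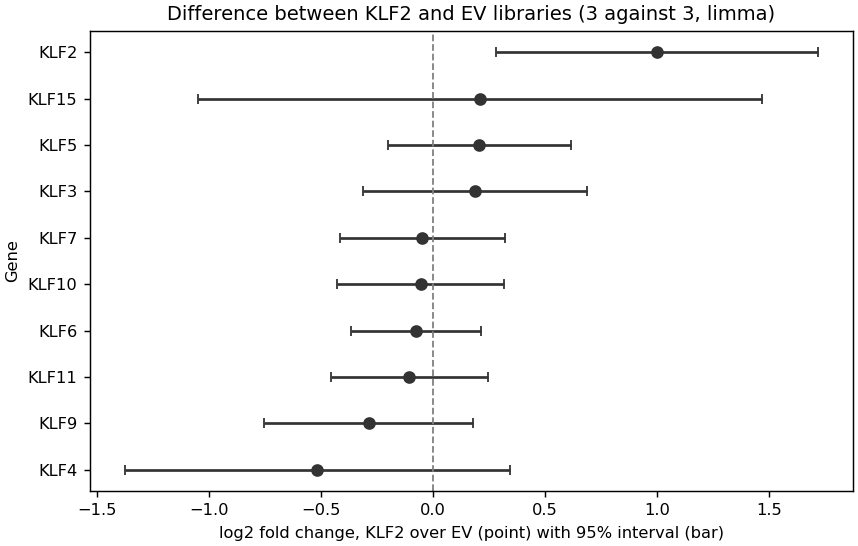
Log2 fold change of each member, KLF2 over EV libraries, with its 95% interval from the fit across all genes. The interval of KLF2 spans 0.28 to 1.72, and the intervals of the other 9 members all include 0.

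KLF2, ENSGALG00010027941, lies on the minus strand of chromosome 28 from 4830903 to 4833376 (GRCg7b). Its normalized counts were 1052, 1618 and 2412 in KLF2 1, 2 and 3, against 1093, 675 and 697 in EV 1, 2 and 3. KLF2 1, the lowest KLF2 library, lay just under EV 1, the highest EV library, and the remaining libraries were apart. The log2 fold change of 1.00 (SE 0.31) did not pass in limma (adjusted p = 0.962, and 0.0184 to 1.00 over the alternatives). The low end is the fit without KLF2 3 and EV 1, where KLF2 was 1 of 4 genes past the threshold of 17061 (0.0234%), with 0.93. Leaving out EV 1 ends the overlap by construction, and these libraries were chosen with earlier results known. In that fit 10.0% of genes had an unadjusted p under 0.05 in limma, against 2.11% with all libraries. With single libraries left out the log2 fold change of KLF2 lay between 0.70 without KLF2 3 and 1.3 without KLF2 1. In the authors' deposited table the log2 fold change of KLF2 is 1.04 and its adjusted p 1.00. The difference was larger in size than that of 99.6% of genes averaging 20 or more. Counting error, at 2.42% in KLF2 libraries and 3.46% in EV libraries, was small beside the spread between wells, at 40.3% and 28.7% (SD over mean), since 1036 to 2524 reads stood behind each KLF2 library and 662 to 1109 behind each EV library. The counts do not separate transcripts of the plasmid from those of the chromosome, and in bulk samples fewer transfected cells and less RNA per cell cannot be told apart.

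KLF3 and KLF7 are the other members known to restrain adipogenesis, KLF3 as a repressor that binds CTBP, and KLF7 in work that includes chicken preadipocytes. KLF3 (chromosome 4, 69050711 to 69075232) had 273, 319 and 211 normalized counts in KLF2 1, 2 and 3, against 179, 274 and 254 in EV 1, 2 and 3. KLF2 3 and EV 1 were the low libraries of their groups, and the groups overlapped. For KLF3 the log2 fold change was 0.18 (95% interval -0.32 to 0.69), between 0.00021 without EV 1 and 0.35 without KLF2 3. KLF7 (chromosome 7, 11883406 to 11940382) had 405, 453 and 387 normalized counts in KLF2 1, 2 and 3, against 426, 387 and 477 in EV 1, 2 and 3. No library of KLF7 stood apart, and its range within KLF2 libraries was wider than that of only 19.2% of genes. Its log2 fold change was -0.05 (95% interval -0.42 to 0.32), between -0.12 without EV 2 and, with the sign turned, 0.027 without EV 3.

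KLF4, a close relative of KLF2 and in mouse preadipocytes an early activator of CEBPB, lies on chromosome Z from 56393947 to 56397790. It had 123, 239 and 327 normalized counts in KLF2 1, 2 and 3, against 438, 211 and 307 in EV 1, 2 and 3. KLF2 1 was lowest and EV 1 highest, and the other 4 libraries were interleaved. The log2 fold change was -0.52 (SE 0.38) with a 95% interval of -1.38 to 0.34, and it lay between -0.83 without KLF2 3 and -0.12 without KLF2 1. KLF4 varied widely inside both groups, with a range wider than that of 94.1% of genes in KLF2 libraries and 93.2% in EV libraries. Without KLF2 3, its unadjusted p was 0.0269 and its adjusted p 0.374 in limma, in a fit where 3 of 10 members (KLF2, KLF4 and KLF9) and 12.2% of genes had an unadjusted p under 0.05.

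KLF9, a target of glucocorticoid and thyroid hormone receptors that activates PPARG in mouse preadipocytes, lies on chromosome Z from 35632988 to 35646170. It had 540, 591 and 875 normalized counts in KLF2 1, 2 and 3, against 1037, 683 and 718 in EV 1, 2 and 3. KLF2 1 and KLF2 2 lay below every EV library, and KLF2 3 lay among them. The log2 fold change was -0.29 (SE 0.22), with -0.75 and 0.18 as its 95% limits. With single libraries left out it lay between -0.50 without KLF2 3 (adjusted p = 0.365 in limma) and -0.099 without EV 1, and it was -0.15 without KLF2 1. It was -0.31 without both KLF2 3 and EV 1 (unadjusted p = 0.0431, adjusted p = 0.479 in limma), where 10.0% of genes had an unadjusted p under 0.05.

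KLF5, which turns on PPARG in mouse preadipocytes, lies on chromosome 1 from 156007861 to 156026686. It had 727, 787 and 536 normalized counts in KLF2 1, 2 and 3, against 491, 612 and 665 in EV 1, 2 and 3. KLF2 1 and KLF2 2 lay above every EV library, and KLF2 3 was second lowest of the 6. The log2 fold change was 0.21 (SE 0.19) with 95% limits of -0.20 and 0.61, from 0.081 without EV 1 to 0.37 without KLF2 3.

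KLF6, which represses Dlk1 in mouse preadipocytes, lies on chromosome 2 from 11740172 to 11749212. It had 3670, 3075 and 3258 normalized counts in KLF2 1, 2 and 3, against 3470, 3518 and 3534 in EV 1, 2 and 3. KLF2 1 was the highest of the 6 and the other KLF2 libraries the lowest, so the EV libraries lay inside the range of KLF2 libraries. EV values of KLF6 varied by 0.953% (SD over mean), below the 1.68% of counting error alone, and only 0.404% of genes averaging 20 or more had a narrower EV range. The log2 fold change was -0.08 (SE 0.13), with the narrowest 95% interval of the members, -0.37 to 0.21. It lay between -0.15 without KLF2 1 and -0.02 without KLF2 2.

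KLF15, a glucocorticoid target that in mouse raises the insulin-responsive glucose transporter, lies on chromosome 12 from 10806952 to 10833065. It had 11.2, 9.32 and 3.82 normalized counts in KLF2 1, 2 and 3, against 7.89, 8.15 and 3.82 in EV 1, 2 and 3. These come from 4 to 11 reads in KLF2 libraries and 4 to 8 in EV libraries. The exact 95% Poisson interval, which covers counting error only, is 5.49 to 19.7 reads for the 11 reads of KLF2 1 and 1.09 to 10.2 for the 4 of EV 3, and these intervals overlap. The log2 fold change was 0.21 with 95% limits of -1.05 and 1.47, and it lay between -0.092 without EV 3 and 0.61 without KLF2 3. It was -0.053 without KLF2 1 and 0.75 without both KLF2 3 and EV 1.

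KLF10 and KLF11 are the TGF-beta-inducible pair. KLF10 (chromosome 2, 128801528 to 128806433) had 2123, 2220 and 2973 normalized counts in KLF2 1, 2 and 3, against 3027, 2344 and 2217 in EV 1, 2 and 3. KLF2 3 and EV 1 were its high libraries, and the other 4 lay close together. For KLF10 the log2 fold change was -0.06 (95% interval -0.43 to 0.32), with values above 0 after KLF2 1 (0.036), KLF2 2 (0.0039) or EV 1 (0.081) was dropped and -0.21 without KLF2 3. KLF11 (chromosome 3, 96177703 to 96186818) had 531, 690 and 621 normalized counts in KLF2 1, 2 and 3, against 718, 622 and 636 in EV 1, 2 and 3. KLF2 1 lay below the rest, the groups overlapped, and the log2 fold change was -0.11 (95% interval -0.46 to 0.24). It lay between -0.19 without KLF2 2 and -0.0062 without KLF2 1, and was -0.043 without EV 1.

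The 95% intervals are per gene and not adjusted over genes. They do not say which differences would have passed the threshold, since KLF2 itself, at 1.00, did not. A log2 difference as large as the fitted 1.00 of KLF2, up or down, lay outside the 95% interval of 7 of the other 9 members. The exceptions were KLF4, whose interval reached it on the lower side, and KLF15, whose interval reached it on both sides.

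Several members shared an order of libraries inside each group. KLF2, KLF4, KLF9, KLF10 and KLF11 were higher in KLF2 3 than in KLF2 1, and higher in EV 1 than in the mean of EV 2 and EV 3. For KLF4 these steps were 1.40 and 0.78 on the log2 scale, and for KLF9 they were 0.70 and 0.57. KLF3 and KLF5 had steps of the opposite sign, -0.37 and -0.55 for KLF3 and -0.44 and -0.38 for KLF5, while the steps of KLF6 and KLF7 were between -0.17 and -0.01. Of the 9 members averaging 20 or more, both steps were positive in 5 and negative in 4. Over all 10893 genes at that level both were positive in 38.3% and negative in 38.8%. The difference between plasmids was smaller than the wider of the ranges within groups in 9 of 9 members and in 97.8% of these genes. The first principal component and the ribosomal RNA share also put KLF2 3 above KLF2 1 and EV 1 above EV 2 and EV 3, and their part in the steps was not tested.

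**Figure D3:**
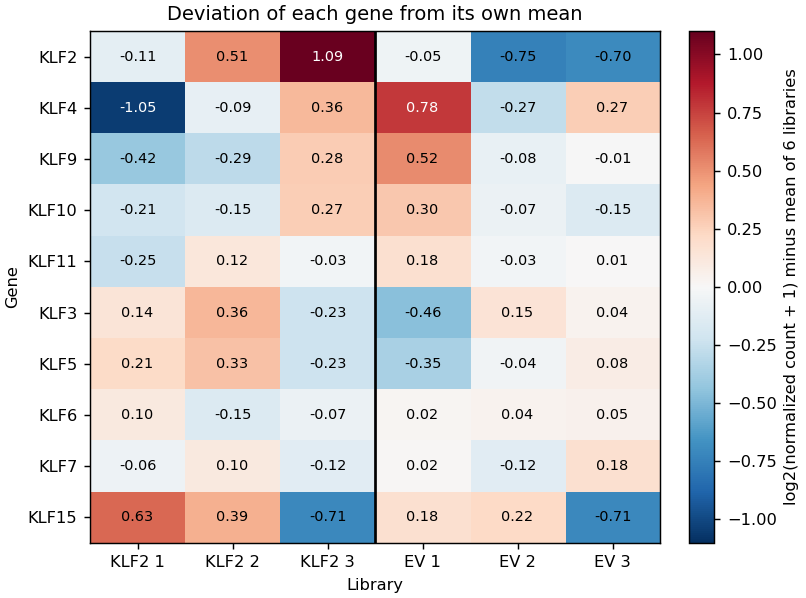
Deviation of each member from its own mean over 6 libraries, in log2(normalized count + 1), with KLF2 libraries left of the line and EV libraries right of it. KLF4 is at -1.05 in KLF2 1 and 0.78 in EV 1, KLF3 and KLF5 are low in KLF2 3 and EV 1, and KLF2 is at 1.09 in KLF2 3 and -0.75 in EV 2.

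KLF2 was also set against each relative within the same library, as the ratio of their levels per kilobase. These ratios were chosen after the values were known, so they are described with no test. The ratio of KLF2 to KLF4 was 8.04, 6.35 and 6.93 in KLF2 1, 2 and 3, against 2.34, 3.00 and 2.13 in EV 1, 2 and 3. The groups were apart, with geometric means that differed 2.87-fold, and 2.82-fold without KLF2 3 and EV 1. The ratio of KLF2 to KLF9 was 1.42, 1.99 and 2.00 in KLF2 libraries, against 0.767, 0.719 and 0.705 in EV libraries. Per kilobase, KLF2 thus lay above KLF9 in every KLF2 library and below it in every EV library. Not divided by length, KLF2 lay above KLF9 in EV 1 as well, at 1093 against 1037 normalized counts.

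The ratio of KLF2 to KLF10 was 0.635, 0.933 and 1.04 in KLF2 1, 2 and 3, against 0.463, 0.369 and 0.402 in EV 1, 2 and 3. KLF2 thus exceeded KLF10 in KLF2 3 only. Ratios to KLF11 and KLF7 did not overlap either, for KLF7 by a narrow margin of 4.66 in KLF2 1 against 4.61 in EV 1. Ratios to KLF3, KLF5, KLF6 and KLF15 overlapped. Of the 8 relatives averaging 20 or more 5 gave ratios without overlap, against 45.7% of 10892 genes averaging 20 or more when each was used as the divisor. KLF4 gave the widest gap of the relatives and was singled out after the values were seen. Its gap was wider than that of 96.7% of those genes, and every ratio shares the same KLF2 values.

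**Figure D4:**
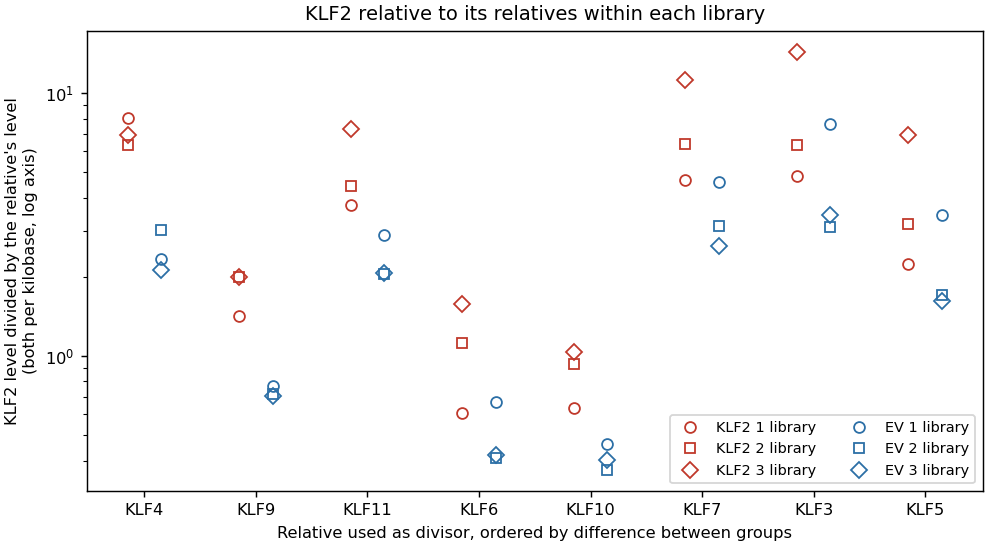
KLF2 level divided by the level of each relative in the same library, both per kilobase, on a log axis, with KLF2 libraries in red on the left and EV libraries in blue on the right of each relative, 1 marker shape per replicate number, and KLF15 not drawn for its low counts. The groups are apart for KLF4 (6.35 to 8.04 against 2.13 to 3.00) and KLF9 (1.42 to 2.00 against 0.705 to 0.767) and overlap for KLF3, KLF5 and KLF6.

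Genes most like KLF2 and KLF4 over the 6 libraries were sought among 9323 named genes averaging 20 or more, by the root mean square difference of centred log2 values. For KLF2 the nearest were FDX2, a mitochondrial ferredoxin, at 0.28, PYM1, a factor that takes apart exon junction complexes, at 0.33, and RNLS, the renalase gene, at 0.34. FDX2 had 24.4, 38.3 and 71.7 normalized counts in KLF2 1, 2 and 3, against 42.4, 23.4 and 22.9 in EV 1, 2 and 3. As in KLF2, to which FDX2 was matched, KLF2 3 was highest and EV 1 lay above the other EV libraries. PYM1 averaged 31.9 in KLF2 libraries and 21.7 in EV libraries, and RNLS 24.8 and 16.0. These genes lie near the minimum of 20, where counting error is larger than for KLF2. The nearest family member to KLF2 was KLF10 at 0.58, in place 648. KLF4 had closer neighbours, MSX1, a homeobox factor, at 0.089, B4GALT3, a galactosyltransferase, at 0.091 and VPS9D1 at 0.095. MSX1 had 286, 535 and 845 normalized counts in KLF2 1, 2 and 3, against 1018, 545 and 683 in EV 1, 2 and 3. KLF9 was the family member nearest to KLF4, at 0.32 and in place 680.

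Of 17 other genes of the KLF and SP family, 8 were matched by name and 7 entered the fit, 2 with a higher and 5 with a lower mean, and 0 passed. SP3, a broadly expressed GC-box factor, was the highest of them, at 478 normalized counts per kilobase in KLF2 libraries and 464 in EV libraries, next below KLF2 by the mean of all libraries. SP1, its close relative, had 269, 335 and 540 normalized counts in KLF2 1, 2 and 3, against 886, 431 and 460 in EV 1, 2 and 3. KLF2 3 lay above EV 2 and EV 3, so the groups overlapped, with a log2 fold change of -0.62 (SE 0.33). KLF8, a CTBP-binding repressor, had 59.9, 123 and 233 normalized counts in KLF2 1, 2 and 3, against 231, 143 and 147 in EV 1, 2 and 3. KLF12, another such repressor, averaged 223 in KLF2 libraries and 246 in EV libraries, KLF13 608 and 670, SP4 357 and 331, and SP2 161 and 182. SP9 was listed at 0 in 5 libraries and had 1.91 in EV 3. The table also likens 4 unnamed genes to SP7, KLF4, KLF15 and KLF5. ENSGALG00010024365, likened to SP7, averaged 102 in KLF2 libraries and 147 in EV libraries, and the other 3 averaged under 5 in each group.

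Genes that act on the family were read from the same fit. The branch from MAP3K3 through ERK5 to the MEF2 factors switches on KLF2 and KLF4 in endothelium. Of 17 genes listed for it 14 were matched, 5 with a higher and 9 with a lower mean, and 0 passed (median log2 fold change -0.03). The list pools genes that drive the branch with genes that hold it down, so these figures give no direction for it. Those not matched by name were HDAC5, MEF2B and MAPK7, which encodes ERK5 itself. KRIT1 and PDCD10, scaffold proteins that hold this branch down, averaged 2793 and 1790 normalized counts in KLF2 libraries, against 2634 and 1760 in EV libraries. PIEZO1, a mechanically gated channel, averaged 1462 in KLF2 libraries and 1584 in EV libraries. Of 7 ubiquitin ligases known to act on KLF proteins 6 were matched, 2 higher and 4 lower, and 0 passed (median -0.06). WWP1, which targets KLF2 and KLF5, averaged 1160 in KLF2 libraries and 1057 in EV libraries, FBXO32 535 and 642, and SIAH1 445 and 416.

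All 10 corepressors and coactivators were matched, 3 higher and 7 lower, and 0 passed (median -0.08). CTBP1, the partner of KLF3, KLF8 and KLF12, averaged 6276 normalized counts in KLF2 libraries and 6042 in EV libraries. The deacetylases HDAC1 and HDAC2 averaged 4038 and 3309 in KLF2 libraries, against 3974 and 2938 in EV libraries. Of 7 glucocorticoid-responsive genes, set beside KLF9 and KLF15, 4 were matched, 1 higher and 3 lower, and 0 passed (median -0.14). FKBP5, a cochaperone of the receptor, averaged 3621 in KLF2 libraries and 4289 in EV libraries, and the kinase SGK1 998 and 924. DUSP1, a MAP kinase phosphatase, had 640, 627 and 815 in KLF2 1, 2 and 3, against 949, 886 and 930 in EV 1, 2 and 3. Its groups did not overlap, as for 3.26% of all tested genes in this direction, with a log2 fold change of -0.42 (unadjusted p = 0.0195, adjusted p = 0.962 in limma). In the TGF-beta list, set beside KLF10 and KLF11, 6 of 8 were matched, 3 higher and 3 lower, and 0 passed (median -0.04). The signal carriers SMAD3 and SMAD2 and the receptor TGFBR1 averaged 2613, 1080 and 1202 in KLF2 libraries, against 2762, 948 and 1029 in EV libraries.

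All 6 adipogenic partners were matched, 2 higher and 4 lower, and 0 passed (median -0.28). The list pools PPARG with GATA2, a restrainer, so these figures give no direction for adipogenesis. The 2 higher were PPARG at 0.04 (SE 0.24) and GATA3 at 0.03 (SE 0.78). GATA3 averaged only 2.65 in KLF2 libraries and 1.96 in EV libraries. The log2 fold change was -0.38 (SE 0.50) for CEBPB and -0.49 (SE 0.55) for CEBPD. CEBPB, activated by KLF4 in mouse preadipocytes, had 2138, 3076 and 6434 normalized counts in KLF2 1, 2 and 3, against 7380, 3409 and 3733 in EV 1, 2 and 3. CEBPD, which acts beside it, had 1053, 1975 and 3557 in KLF2 1, 2 and 3, against 4652, 2040 and 2166 in EV 1, 2 and 3. In both, KLF2 1 was lowest and EV 1 highest, as in KLF4. KLF9, KLF10, KLF11, SP1 and GATA2 had the same extremes, so these were not particular to KLF4. MSX1, picked for its likeness to KLF4 over these same libraries, had the same extremes by that choice. The same libraries had the lowest and highest scores on the first principal component, -42.5 and 38.5. The share of all genes with these extremes is not given here, and a link between KLF4 and CEBPB was not tested. GATA2, which restrains adipogenesis in mouse, averaged 465 in KLF2 libraries and 529 in EV libraries, PPARG 202 and 197, and CEBPA 54.9 and 73.6. Across these 6 lists 1 of 46 tested genes, DUSP1, had an unadjusted p under 0.05, or 2.17%, against the 2.11% of all genes.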

How the data were processed

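Poly(A) RNA of 6 wells was sequenced. The submitters' processing notes name featureCounts 1.5.0-p3, StringTie 1.3.3b, HISAT2 2.0.5 and fastp, and the build GRCg7b. Which program normalized is not named in the sources used here. DESeq2 on recovered reads gave the deposited values of KLF2 again, a log2 fold change of 1.04 and an unadjusted p of 3.02e-04. The deposited values and that fit are therefore not separate evidence. What the authors deposited is a normalized count (a signal, never negative): 100% of values were whole multiples of 1 read (tolerance 1e-06), which gave back the reads. Gene lengths and positions, the authors' deposited log2 fold change and p-value also come from that table.

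Robust limma-trend (limma 3.58.1, R 4.3.3) was fitted, two-sided, to log2(normalized count + 1), which understates changes of low genes, where either group averaged 1 or more. It was tested on simulated data, drawn independently for each library. Those lacked the pattern that these libraries share, so that test does not gauge the fit on these data. Alternatives were edgeR 4.0.16 and DESeq2 1.42.0 on recovered reads, TMM and quantile scaling, no filter, pseudocounts of 0.1 and 5, a replicate block, and libraries left out. No 2 libraries were copies (chi-square per gene at least 5.20). Named were the members, relatives averaging 20 or more in either group, the 3 highest genes of each list of regulators, partners and preadipocyte markers, GATA2, PPARG, CEBPA and the 3 genes nearest to KLF2 and KLF4; other names were chosen after their values were seen. Members and lists were chosen with earlier results of these data known.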

Additional observations from a re-analysis of the deposited data

How the results depend on the processing

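With KLF2 3 and EV 1 both left out, 4 genes and 1 member passed, KLF2 with a log2 fold change of 0.93 (limma adjusted p = 0.0184); leaving out EV 1 ends the overlap of KLF2 by construction, and these libraries were chosen with earlier results known. Under each of the other 14 of 15 alternatives 0 genes passed, and KLF2 was 0.70 to 1.3 with single libraries left out. Of 134 values for the other members 128 kept their sign and 6 turned it. These were KLF7 (-0.12 to 0.027 with single libraries left out), KLF10 (-0.21 to 0.081, with 3 values turned) and KLF15 (-0.092 to 0.61, with 2 turned). edgeR gave no value for KLF15, removed by its filter. Not divided by length, KLF2 had rank 3 in KLF2 libraries and rank 3 in EV libraries; with single libraries left out its rank was 2 to 3 in KLF2 libraries and 4 in EV libraries. With the replicate block 0 genes passed and KLF2 was 1.00. Same-numbered libraries had residual correlations of -0.600, 0.144 and -0.511, which showed no pairing. With 67.1% of variance on the first principal component, this check could miss a smaller effect shared by number. Read counts limit KLF15.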

Other observations

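No member overlapped another gene of the deposited table. The nearest gene to KLF2 is a non-coding gene 14 bases away on the opposite strand, with a mean of 1.35 normalized counts in KLF2 libraries and 0.318 in EV libraries. The nearest to KLF11 is 84 bases away and the nearest to KLF10 295 bases away, and each averaged under 5 in both groups. Of the named KLF genes KLF5 and KLF12 lie closest to each other, 211285 bases apart with 2 genes of the table between them, while KLF9 and KLF4 share chromosome Z with 213 genes between them. RefSeq annotation of GRCg7b lists 1 further gene that overlaps each of KLF4, KLF5 and KLF9, and 2 that overlap KLF15, and the sources used here do not say how such reads were counted. It gives 1 transcript for KLF2, KLF5 and KLF9, and 25 for KLF15.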
